A study of Homo sapiens with 4 samples.

Results

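To describe Notch signalling genes in neuroendocrine prostate cancer (NEPC) cells under fluoxetine, the levels of 10 genes were taken from the deposited expression table, which lists 16376 genes. The 10 genes were given by symbol, as 3 receptors (NOTCH1, NOTCH2 and NOTCH3), 5 ligands (DLL1, DLL3, DLL4, JAG1 and JAG2) and 2 HES transcription factors (HES1 and HES6), and all 10 were found in the table. The cells were LASCPC-01, a human NEPC line made by adding NMYC and an active form of AKT1 to prostate cells, and the labels give their genotype as WT. The control libraries came from cells that received PBS, and the treated libraries from cells that received fluoxetine, an antidepressant that inhibits serotonin reuptake, with 2 libraries in each group. Both groups are labelled as day 3, whereas the study's text gives 5 µM fluoxetine for 48 h, and the letters PP appear in both fluoxetine titles. All 4 libraries are of 1 cell line, and nothing in the labels says whether the replicates were separate cultures, so the tests measure only the spread between these libraries. In such bulk RNA, fewer cells of a type and less RNA per cell cannot be told apart.

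Notch receptors are single-pass membrane proteins that bind Delta-like and Jagged ligands on neighbouring cells. Ligand binding exposes the receptor to cleavage by an ADAM protease and then by gamma-secretase, and the released intracellular part enters the nucleus, joins the DNA-binding protein RBPJ and a Mastermind coactivator, and switches on genes such as HES1. HES1 represses proneural transcription factors, and in neuroendocrine tumours Notch signalling is known mostly as a brake on the neuroendocrine programme. DLL3 is an unusual ligand that is held largely inside the cell and inhibits Notch in the same cell, and it is a target of antibody-based drugs in neuroendocrine cancers.

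RNA was sequenced as paired-end reads, and the authors deposited FPKM, a measure in which fragment numbers are divided by gene length and library depth. Whole reads could be recovered from the FPKM, with depths between 32873603 and 34831389 reads per library, so that 1 read in a gene of 1 kilobase was worth between 0.0287 and 0.0304 FPKM. The depth was the value shared by 48 genes of known exon length, and the read numbers given here are the smallest whole numbers that produce the deposited values, so the true numbers can be multiples of them. The neuroendocrine identity of the line was carried by some of its defining markers and not by others. NCAM1 had a mean of 48.6 FPKM over the 4 libraries and INSM1 22.9 FPKM, whereas CHGA had 0.0401 FPKM, CHGB 0.0445 FPKM and SYP 0.451 FPKM. Of 8 endothelial markers, 6 had a mean below 0.1 FPKM, including PECAM1 with 0.00786 FPKM, CDH5 with 0.0541 FPKM and KDR with 0.00514 FPKM. The summed level of this endothelial list was between 29.8 and 32.7 FPKM with PBS and between 31.2 and 32.3 FPKM with fluoxetine, nearly all of it EGFL7 with a mean of 31.3 FPKM. The summed level of 10 neuroendocrine markers was lower with fluoxetine without overlap. It was between 461 and 477 FPKM with PBS and between 406 and 453 FPKM with fluoxetine. Most of this sum was MYCN, the gene of the NMYC that was added to make the line, with a mean of 361 FPKM. Of the 10 markers, 4 had a mean below 0.1 FPKM. That of 8 luminal epithelial markers was higher without overlap, from 1014 to 1071 FPKM with PBS and from 1087 to 1175 FPKM with fluoxetine, mostly from KRT8, KRT18 and EPCAM. The fibroblast list summed to between 2.88 and 3.15 FPKM with PBS and between 1.98 and 2.85 FPKM with fluoxetine. It was thus also lower without overlap, although 6 of its 8 markers had a mean below 0.1 FPKM. The immune list summed to between 2.89 and 4.14 FPKM with PBS and between 2.78 and 3.74 FPKM with fluoxetine. Of the single genes tested, described below, the groups did not overlap for 41.6%. In these 5 lists no marker passed the limma test, and the part of these shifts in the results on the 10 genes was not tested.

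The 10 genes spanned a wide range of levels per length, and this range was far wider than any difference between the groups. HES6, DLL3 and JAG2 had means above 100 FPKM over the 4 libraries, NOTCH1, DLL1 and DLL4 had means between 10 and 100 FPKM, and NOTCH2, JAG1, HES1 and NOTCH3 had means below 5 FPKM. Ordered by mean level, 7 of the 9 pairs of neighbours were separated in every library without overlap of their ranges. The ranges overlapped for HES6 and DLL3, with means of 196 and 194 FPKM, and for NOTCH2 and JAG1, with means of 4.18 and 3.45 FPKM, although NOTCH2 was above JAG1 in 4 of 4 libraries. Because FPKM is a value per length, these orders compare levels between genes, and they depend on the gene lengths that the authors used.

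Among the receptors, NOTCH1 made up nearly all of the receptor RNA. NOTCH1 lies on chromosome 9 of GRCh38 from 136494433 to 136545786 on the minus strand in the GENCODE 29 annotation, NOTCH2 on chromosome 1 from 119911553 to 120069626 on the minus strand, and NOTCH3 on chromosome 19 from 15159038 to 15200981 on the minus strand. NOTCH1 accounted for between 91.7% and 93.4% of the summed FPKM of the 3 receptors in each library, NOTCH2 for between 6.30% and 7.92%, and NOTCH3 for between 0.242% and 0.349%. By mean FPKM, NOTCH1 ranked 1218 among the 16376 genes, NOTCH2 8167 and NOTCH3 12116. The remaining human receptor, NOTCH4, had between 0.0341 and 0.0896 FPKM in the 4 libraries and was too low to be tested. NOTCH2 has near-identical partial copies, the NOTCH2NL genes, and reads may be split between them. NOTCH2NLA was listed with between 0.120 and 0.173 FPKM, so the copies were listed far below NOTCH2 itself.

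The ligand RNA was mostly DLL3 and JAG2. DLL3 lies on chromosome 19 from 39498895 to 39508481 on the plus strand, JAG2 on chromosome 14 from 105140981 to 105168824 on the minus strand, DLL1 on chromosome 6 from 170282206 to 170306565 on the minus strand, DLL4 on chromosome 15 from 40929333 to 40939073 on the plus strand, and JAG1 on chromosome 20 from 10637684 to 10673999 on the minus strand. DLL3 made up between 51.0% and 54.0% of the summed FPKM of the 5 ligands in each library, JAG2 between 33.5% and 35.8%, DLL1 between 6.73% and 8.26%, DLL4 between 4.4% and 4.89%, and JAG1 between 0.797% and 1.03%. Jagged RNA was therefore almost all JAG2, which was between 33.7 and 42.8 times the level of JAG1 in the same library. DLL4, a ligand best known from endothelial cells, had a mean of 16.8 FPKM. In the same libraries 6 of 8 endothelial markers, among them PECAM1, CDH5 and KDR, had means below 0.1 FPKM. The others were VWF with a mean of 0.113 FPKM and EGFL7 with 31.3 FPKM. In GENCODE 29, exons of JAG1 overlap an annotated gene on the opposite strand (AL050403.2), and exons of JAG2 overlap one on the same strand (AL512356.1). The kit named in the labels marks strand, the study's methods name a different kit, and whether the counting used strand is not given in the sources used here, so reads of these overlapping genes may not be told apart.

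The HES genes stood far apart in level, with HES6 the highest of the 10 and HES1 the lowest but for NOTCH3. HES6, which encodes a HES protein that counteracts HES1 and favours neurogenesis, lies on chromosome 2 from 238238267 to 238240662 on the minus strand and ranked 253 among the 16376 genes. HES1, the classical Notch target, lies on chromosome 3 from 194136145 to 194138732 on the plus strand and ranked 10438. HES6 was 154 and 140 times as high as HES1 in the PBS libraries and 264 and 170 times as high in the fluoxetine libraries. HES1 rested on few reads, at least 69 and 65 with PBS and at least 43 and 66 with fluoxetine. Among the other HES genes, which were named after their values were seen, HES4 had 147 and 131 FPKM with PBS and 154 and 139 FPKM with fluoxetine, and HES2 had between 5.0 and 5.83 FPKM in the 4 libraries. HES5, another well-known Notch target, had 0.0919 and 0.109 FPKM with PBS, and 0.0217 and 0 FPKM with fluoxetine, which are 4, 5, 1 and 0 reads.

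HES1 and HES4 differed in level by more than 100 times in each library, so the bases upstream of both gene starts were searched for the core letters of the RBPJ binding site, GTGGGAA, on both strands of the 250 bases before the start. The sequences are from RefSeq on GRCh38.p14, are written 5′ to 3′ on the strand of the gene, and carry the match in capitals. The HES1 stretch is chr3:194135988-194136107 on the plus strand, which covers bases -160 to -41 from the start, and its match begins at base -85. The HES4 stretch is chr1:1000157-1000186 on the minus strand, which covers bases -89 to -60, and its match begins at base -77. In GENCODE 29 the HES4 stretch partly overlaps an exon of another HES4 transcript that starts further upstream, and the HES1 stretch overlaps no exon.
HES1: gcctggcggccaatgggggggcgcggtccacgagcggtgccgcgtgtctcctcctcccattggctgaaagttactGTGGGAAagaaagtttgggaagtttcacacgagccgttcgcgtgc
HES4: gctggggcgagtGTGGGAAagaatgcggag
The letters were present before the starts of both genes, and their part in the level of either gene was not tested. Of the 10 genes, 8 had a promoter entry and HES1 was the 1 with a match. DLL1 and DLL3 had no entry. Among all 35116 promoter entries, 5.43% held the letters in the same window. A match of letters is a description of the sequence and not of binding.

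To determine whether fluoxetine altered these genes, the groups were compared with limma on log2(FPKM + 0.1) across the 12663 genes with a mean of at least 0.1 FPKM, which included all 10. None of the 10 genes had an adjusted p under 0.05 from limma, and none had an unadjusted p under 0.05. In the same fit 30 genes, or 0.237% of those tested, had an adjusted p under 0.05, of which 0.213% of all tested genes were lower and 0.0237% higher in fluoxetine, and 8.51% had an unadjusted p under 0.05. The log2 fold changes of the 10 genes ran from -0.34 for HES1 to 0.15 for HES6, with 5 below 0, 5 above 0 and a median of 0.01, beside a median of -0.02 over all genes tested. Fluoxetine values lay below the PBS values without overlap for NOTCH2 and above them for JAG2, whereas the groups overlapped for the other 8. Groups did not overlap for 41.6% of all genes tested, with fluoxetine below for 24.8% and above for 16.7%, so a count of 2 in 10 was not above the background. For 1 gene on its own, 2 libraries against 2 allow no p under 0.33 in an exact permutation test (two-sided).

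**Figure D1:**
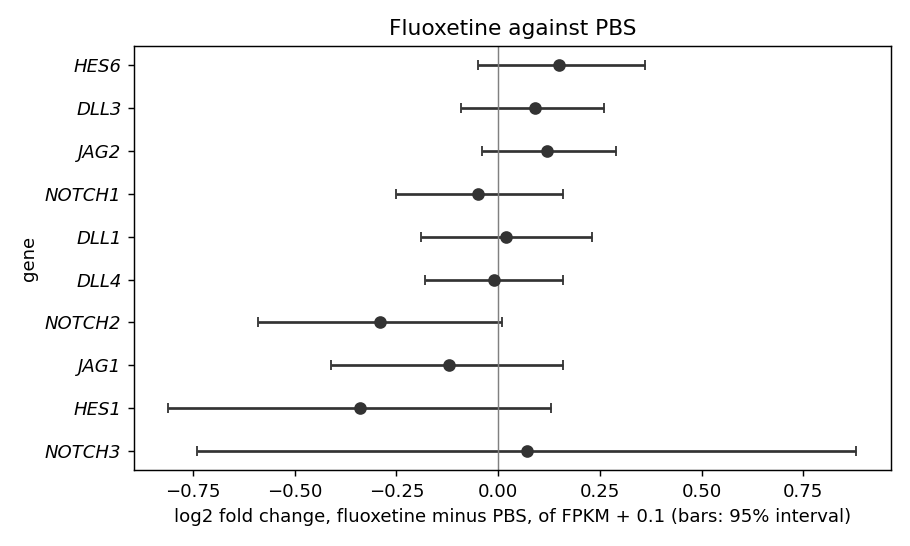
Log2 fold change of fluoxetine against PBS for each gene on the log2(FPKM + 0.1) scale, with the 95% interval from limma (2 libraries per group). All 10 intervals include 0, and they widen from the genes with high FPKM to HES1 and NOTCH3.

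Of the receptors, NOTCH2 had the lowest log2 fold change, and it did not pass the test. With PBS, NOTCH2 measured 4.81 and 4.37 FPKM, against 3.25 and 4.29 FPKM with fluoxetine. Fluoxetine replicate 1 was well below the others, and fluoxetine replicate 2 was just below the lower PBS library. The means were 4.59 ± 0.314 FPKM (SD, n = 2) and 3.77 ± 0.736 FPKM (SD, n = 2), a log2 fold change of -0.29 with a 95% interval from -0.59 to 0.01 (adjusted p = 0.580 from limma). NOTCH1 had 55.8 and 55.0 FPKM with PBS and 48.2 and 59.5 FPKM with fluoxetine. The fluoxetine libraries lay on both sides of the PBS libraries, and the log2 fold change of NOTCH1 was -0.05, with an interval from -0.25 to 0.16 (adjusted p = 0.898). NOTCH3, whose RNA was at least 58 and 43 reads with PBS and at least 46 and 67 reads with fluoxetine, had 0.205 and 0.144 FPKM and 0.154 and 0.224 FPKM. Counting error alone gave 95% Poisson intervals of 31.1 to 57.9 reads for the library with 43 reads and of 51.9 to 85.1 reads for that with 67, and the interval of its log2 fold change, from -0.74 to 0.88, was the widest of the 10.

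Of the ligands, none passed the test. DLL3, the most abundant, had 199 and 177 FPKM with PBS and 201 and 197 FPKM with fluoxetine, and PBS replicate 2 was the 1 library below the others. Its means over the libraries were 188 ± 15.0 FPKM (SD, n = 2) and 199 ± 3.33 FPKM (SD, n = 2), with a log2 fold change of 0.09 and an interval from -0.09 to 0.26 (adjusted p = 0.750 from limma). Without PBS replicate 2 the log2 fold change of DLL3 was 0.00, and without PBS replicate 1 it was 0.17. JAG2 had 124 and 120 FPKM with PBS and 127 and 138 FPKM with fluoxetine. The fluoxetine values were the higher ones without overlap, and the log2 fold change of JAG2 was 0.12, with an interval from -0.04 to 0.29 (adjusted p = 0.624). It lay between 0.07, without fluoxetine replicate 2, and 0.18, without fluoxetine replicate 1, when a library was left out.

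DLL1, a classical activating ligand, had 25.9 and 28.6 FPKM with PBS and 25.1 and 30.4 FPKM with fluoxetine. The 2 fluoxetine libraries were the lowest and the highest of the 4, so that the log2 fold change of 0.02 had an interval from -0.19 to 0.23 (adjusted p = 0.962 from limma). DLL4 had 16.9 FPKM in both PBS libraries and 16.4 and 17.1 FPKM with fluoxetine, the smallest spread of the 10 genes relative to its level, and a log2 fold change of -0.01 with an interval from -0.18 to 0.16. JAG1, the less abundant Jagged ligand, had 3.64 and 3.55 FPKM with PBS and 2.97 and 3.64 FPKM with fluoxetine. Only fluoxetine replicate 1 was low, and the log2 fold change of JAG1 was -0.12, with an interval from -0.41 to 0.16 (adjusted p = 0.785).

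The HES genes had fold changes of opposite sign, and neither passed the test. HES1 had 1.33 and 1.19 FPKM with PBS and 0.784 and 1.20 FPKM with fluoxetine. Fluoxetine replicate 1 was low, whereas fluoxetine replicate 2 lay between the PBS libraries. The means were 1.26 ± 0.103 FPKM (SD, n = 2) and 0.994 ± 0.296 FPKM (SD, n = 2), with a log2 fold change of -0.34 and an interval from -0.81 to 0.13 (adjusted p = 0.638 from limma). The 43 reads of fluoxetine replicate 1 had a counting interval of 31.1 to 57.9 reads. That of the 69 reads of PBS replicate 1 was from 53.7 to 87.3 reads. Both intervals rest on the smallest possible reads, and their overlap is not a test of the difference between the 2 libraries. Without fluoxetine replicate 1, the log2 fold change of HES1 was -0.06, and without fluoxetine replicate 2 it was -0.62. HES6 had 205 and 167 FPKM with PBS and 207 and 204 FPKM with fluoxetine. PBS replicate 2 was low and the other 3 libraries were alike, with a log2 fold change of 0.15 and an interval from -0.05 to 0.36 (adjusted p = 0.626). Without PBS replicate 2, the log2 fold change of HES6 was 0.01, and without PBS replicate 1 it was 0.30 (adjusted p = 0.423 from limma).

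Both low libraries recurred across the 10 genes. Fluoxetine replicate 1 held the lowest value of the 4 libraries for 6 of the 10 genes, namely NOTCH1, NOTCH2, DLL1, DLL4, JAG1 and HES1, and PBS replicate 2 held the lowest for the other 4. Fluoxetine replicate 2 held the highest value for 6 genes. The shares of all genes that were lowest or highest in each library were not counted. Over all listed genes, fluoxetine replicate 1 had the lowest median of the 4 libraries, 4.02 FPKM, and PBS replicate 2 the highest, 4.25 FPKM. The deviation of a gene from its own mean over the libraries correlated with log2 exon length (r = -0.252 in fluoxetine replicate 1, r = 0.160 in PBS replicate 2) across 12340 genes of the same libraries. Over the 10 genes the same correlation was -0.30 in fluoxetine replicate 1 and 0.23 in PBS replicate 2. In PBS replicate 1 it was 0.14 over the 10 genes and 0.044 over the 12340. In fluoxetine replicate 2 it was 0.19 over the 10 genes and 0.054 over the 12340. The correlations over the 10 genes were not tested. With the gene length trend removed from each library, the log2 fold change of NOTCH2 was -0.17, that of JAG1 -0.05 and that of NOTCH1 0.04. That of HES1, a short gene with an exon length of 2062 bases, was -0.39. The log2 fold change of JAG2 was 0.16, against 0.12 before this step. The remaining values were 0.14 for NOTCH3, 0.10 for HES6, 0.05 for DLL3 and 0.00 for both DLL1 and DLL4. The part of gene length in these values was not tested. Without fluoxetine replicate 1, the log2 fold change of NOTCH2 was -0.10, that of JAG1 0.02 and that of NOTCH1 0.10. Without fluoxetine replicate 2, they were -0.49 for NOTCH2, -0.26 for JAG1 and -0.20 for NOTCH1.

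**Figure D2:**
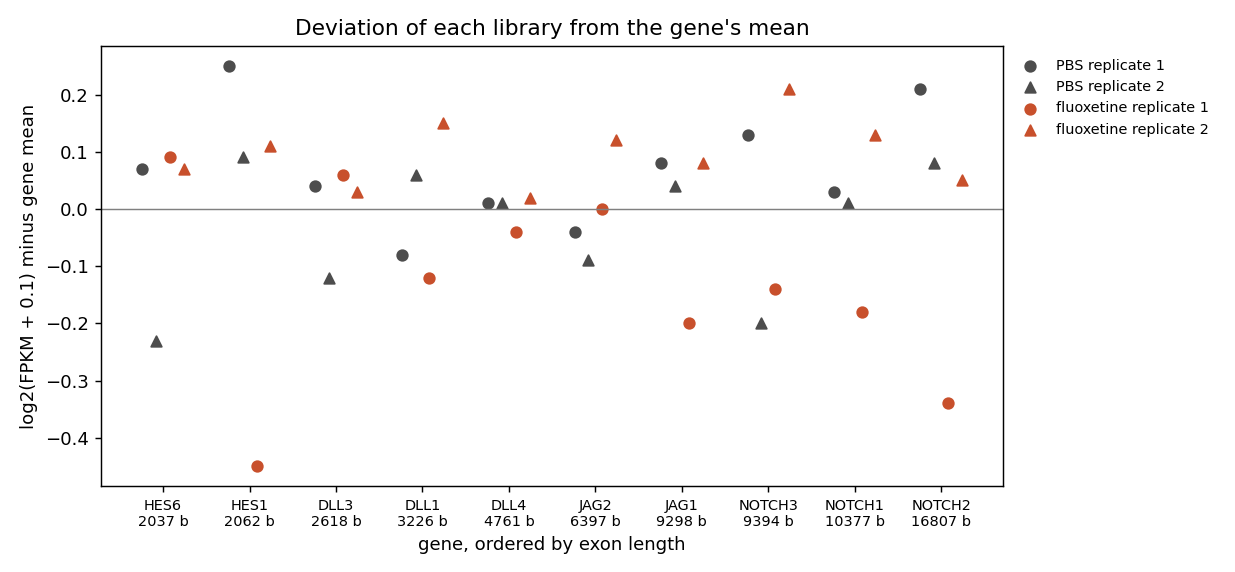
Deviation of each library from the mean of the gene over the 4 libraries, in log2(FPKM + 0.1), with the genes ordered by GENCODE 29 exon length in bases from HES6 (2037) to NOTCH2 (16807). Fluoxetine replicate 1 (orange circles) is the lowest library for 6 genes, with -0.45 for HES1 and -0.34 for NOTCH2, and PBS replicate 2 (grey triangles) is lowest for HES6, DLL3, JAG2 and NOTCH3.

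The wider pathway was examined through 8 lists of genes grouped by role, which held 70 genes including the 10. Of these, 69 were in the table and 62 could be tested, and none had an adjusted p under 0.05 from limma in either direction. An unadjusted p under 0.05 was found for 4 of the 62, beside 8.51% of all genes tested, so this count was not above the background. Log2 fold changes were below 0 for 42 and above 0 for 20 of the 62, with a median of -0.06, and for all genes tested they were below 0 for 7156 of 12663, with a median of -0.02. The lowest and the highest log2 fold change, -0.54 for HEY1 and 0.56 for TLE2, belonged to genes with a mean under 1 FPKM, and these were named after their values were seen. Groups did not overlap for 15 of the 62 with fluoxetine below and for 9 with fluoxetine above, beside 24.8% and 16.7% of all genes tested. Apart from the most abundant gene of each list, the genes named below were picked for no overlap and the largest change. Their lack of overlap follows from that choice.

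Among the 11 HES, HEY and feedback genes, 7 could be tested, with a median log2 fold change of -0.20. HES7, an oscillating HES gene of the embryonic somite clock, had 2.64 and 2.34 FPKM with PBS and 2.01 and 1.43 FPKM with fluoxetine. Both fluoxetine libraries were lower, with a log2 fold change of -0.52 and an interval from -0.90 to -0.15, but the adjusted p was 0.468 from limma. NRARP, a feedback inhibitor that is itself induced by Notch, had 15.0 and 15.9 FPKM with PBS and 13.8 and 13.1 FPKM with fluoxetine. Its groups did not overlap either, and its log2 fold change of -0.20 had an adjusted p of 0.552.

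In the nuclear complex, 9 of 10 genes had a log2 fold change below 0, beside 7156 of 12663 for all genes tested. The median of the list was -0.14, and none of its genes passed the test. The part of gene length in the values of this list was not tested. RBPJ, the DNA-binding partner of the cleaved receptor, had 18.4 and 18.7 FPKM with PBS and 15.8 and 17.1 FPKM with fluoxetine, giving -0.17 as its log2 fold change (adjusted p = 0.579 from limma). FBXW7, which targets the intracellular receptor for degradation, had 6.33 and 5.99 FPKM with PBS and 5.37 and 5.61 FPKM with fluoxetine, giving a log2 fold change of -0.16 (adjusted p = 0.632). For both genes the fluoxetine libraries were the lower ones. SNW1 had the highest level of this list, with 41.5 ± 3.23 FPKM (SD, n = 2) and 41.3 ± 1.98 FPKM (SD, n = 2).

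The receptor processing enzymes were all present, and their 9 genes had a median log2 fold change of -0.06. Of these, 6 had a log2 fold change below 0 and 3 above 0, whereas 7156 of all 12663 genes tested were below 0. Fluoxetine lay below PBS without overlap for 4 and above it for 2, beside 24.8% and 16.7% of all genes tested. The 2 were PSEN2 and APH1A. FURIN, which cleaves the receptor on its way to the surface, was the most abundant with 87.2 ± 1.95 FPKM with PBS and 86.8 ± 5.03 FPKM with fluoxetine (SD, n = 2). PSEN2, a catalytic subunit of gamma-secretase, had 17.8 and 16.1 FPKM with PBS and 18.2 and 20.8 FPKM with fluoxetine. Its fluoxetine libraries were the higher ones, with a log2 fold change of 0.20 (adjusted p = 0.568 from limma). APH1A, another subunit, averaged 44.1 ± 0.974 FPKM with PBS against 48.3 ± 2.22 FPKM with fluoxetine, for a log2 fold change of 0.13 (adjusted p = 0.613).

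The 5 receptor glycosylation genes, among them Fringe enzymes that set the ligand preference of receptors, had a median log2 fold change of 0.05. MFNG was the most abundant of them with 114 ± 9.32 FPKM with PBS and 121 ± 3.49 FPKM with fluoxetine (SD, n = 2). RFNG had 15.8 and 17.0 FPKM with PBS and 15.4 and 15.0 FPKM with fluoxetine, and POFUT1 had 10.4 and 9.80 FPKM with PBS and 10.7 FPKM in both fluoxetine libraries. RFNG was thus the lower and POFUT1 the higher in fluoxetine without overlap, with log2 fold changes of -0.11 and 0.09 that did not pass the test.

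Of 11 tested genes of ligand and receptor trafficking, 9 had a log2 fold change below 0, beside 7156 of 12663 for all genes tested. The median of the list was -0.12, and the part of gene length in it was not tested. NUMB, an endocytic inhibitor of Notch, had 26.2 and 29.9 FPKM with PBS and 24.2 and 23.9 FPKM with fluoxetine. Both fluoxetine libraries were lower, with a log2 fold change of -0.22 and an adjusted p of 0.535 from limma. LNX1, a ubiquitin ligase of NUMB, averaged 2.81 ± 0.162 FPKM with PBS against 2.45 ± 0.0488 FPKM with fluoxetine (SD, n = 2), for a log2 fold change of -0.19 (adjusted p = 0.666). NEURL1 was the most abundant of this list, with 30.9 ± 1.39 and 30.6 ± 1.96 FPKM. The 11 corepressors had a median log2 fold change of -0.05, and HDAC1, the most abundant of them, averaged 80.2 ± 0.0648 FPKM with PBS against 82.7 ± 0.852 FPKM with fluoxetine.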

How the data were processed

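LASCPC-01 RNA was sequenced in 4 libraries, grouped by the treatment in the labels. The authors deposited 1 FPKM value per gene and library. The submitters' processing notes name fastp, HISAT2, HTSeq and GRCh38, with no versions, and the gene annotation is not given in the sources used here. The study's own test needs counts, so limma 3.58.1 in R 4.3.3 (lmFit, eBayes with a variance trend) was run on log2(FPKM + 0.1) for genes with a mean of at least 0.1 FPKM, with Benjamini-Hochberg adjustment over all of them. Such fold changes understate changes of low genes. Reads were solved from FPKM ratios, for 99.5% of the 16080 genes above 0, and the fit was tested on simulated data. Replicates correlated at 0.993 and 0.994 across genes, and their reads differed by more than sampling noise (chi-square per degree of freedom 9.20 and 10.6). Counting intervals cover counting error only.

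The members and gene lists were chosen with earlier results of these data known. One listed neuroendocrine marker is not reported here. Named pathway genes were those with an adjusted p under 0.05, and per list up to 2 with a mean of at least 1 FPKM, no overlap and the largest change, and the most abundant. Positions came from GENCODE 29, promoters from RefSeq, and tables and figures from Python 3.11.15 with pandas 2.3.3 and matplotlib 3.10.9. The alternatives were other pseudocounts, filters, scalings and moderation, a replicate block, each library left out, a length correction (lowess, span 0.3), voom on the solved reads and ratios of means.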

Additional observations from a re-analysis of the deposited data

How the results depend on the processing

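None of the 10 genes had an adjusted p under 0.05 under any alternative, and the smallest was 0.171, for NOTCH2 with voom on recovered reads (NOTCH3 could not be tested at a minimum of 1 FPKM). An unadjusted p under 0.05 appeared for NOTCH2 under 4 alternatives, HES6 under 2, and NOTCH1, HES1 and JAG2 under 1 each. Of 169 recomputed fold changes, 158 kept their direction and 11 changed sign, 7 of them with a library left out. NOTCH1 was 0.04 with the gene length trend removed, DLL1 was -0.02 after rescaling to TPM, and DLL4 was 0.01 with median centring and 0.00 with the length trend removed. With a library left out, the log2 fold changes ranged from -0.20 to 0.10 for NOTCH1, -0.10 to 0.25 for NOTCH3, -0.11 to 0.16 for DLL1, -0.04 to 0.02 for DLL4 and -0.26 to 0.02 for JAG1, and a lone library was assumed to vary like the other group.

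Over all genes, those lower numbered 0 without the filter and without the variance trend, 14 with quantile normalization and 69 with voom, and those higher numbered 0 without the filter and without the trend, 6 with a minimum mean of 1 FPKM, 5 with median centring, 1 with the length trend removed and 14 with voom. At an unadjusted p under 0.05 there were 1069 genes without the filter and 933 without the trend. Leaving out a library gave 1 to 11 lower and 1 to 2 higher genes against 27 and 3 with all 4, with 1 lower gene without PBS replicate 1, 2 without PBS replicate 2, 7 without fluoxetine replicate 1 and 11 without fluoxetine replicate 2. The cause was not tested. Blocking on replicate number gave 47 lower and 17 higher genes, and the deviations of same-numbered libraries correlated at 0.035 over the genes tested, at 0.058 over those with at least 1 FPKM and at 0.101 over those with at least 10 FPKM. The labels give no shared origin for a number, and 2 pairs are too few to establish one.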
